A study of Homo sapiens with 54 samples.

Results

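The insulin and insulin-like growth factor (IGF) receptors, the receptor substrates and the IGF binding proteins were examined in human embryonic stem cells (ESCs) and induced pluripotent stem cells (iPSCs). They were 10 genes of 19720 named on the array, namely the receptors IGF1R, INSR and IGF2R, the substrates IRS1 and IRS2, and the binding proteins IGFBP2, IGFBP4, IGFBP5, IGFBP6 and IGFBP7. Features were assigned to them by RefSeq accession, which gave 11 of 42405 features, since IRS1 had 2 features and every other gene had 1. Their levels were read in 27 cultures, each hybridised to 2 one-colour arrays.

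The H1 ESC line was cultured in E8 Medium, made of Essential 6 Medium with 2 ng/mL TGF-beta 1 and 100 ng/mL of an FGF. In 3 experiments it was sampled as a pre-culture with bFGF and after 4 days with bFGF, with FGFC (a chimera of FGF1 and FGF2) or with no FGF additive. H1 was also kept for 30 days in E8 with either factor, and for 41 days in MMC-MEF conditioned medium (medium taken from mouse embryonic fibroblasts, MEFs) at 5 ng/mL, with a pre-culture. KhES-1 ESCs on MEF feeder cells (5 ng/mL, 30 days), 201B7 iPSCs on MEF feeder cells (10 ng/mL, 50 days) and 253G1 iPSCs in E8 (100 ng/mL, 36 days) were each sampled as a pre-culture and with either factor. Both iPSC lines were derived from HDF. A single differentiated H1 culture came from embryoid bodies, and its passage and medium are not given in the labels. Each line is 1 line, and each long-term condition is 1 culture. The FGF dose differed with the medium, so that medium and dose cannot be told apart.

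Insulin and the IGFs act through receptor tyrosine kinases. INSR and IGF1R phosphorylate the docking proteins IRS1 and IRS2, which recruit phosphoinositide kinases and turn on AKT. IGF2R has no such kinase and carries IGF2 to lysosomes for breakdown. The binding proteins are secreted, hold the IGFs away from their receptors or release them after proteolysis, and some also bind the extracellular matrix. Human pluripotent stem cells need insulin or an IGF to survive and proliferate, and insulin is a component of Essential 6 Medium. The insulin content of the MEF-based media is not given in the sources used here.

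The windows before the starts of IGFBP2, IGFBP4 and IGFBP5 are shown because these genes moved on FGF removal and because IGFBP2 and IGFBP5 are neighbouring protein-coding genes that moved in opposite directions there. Each line gives the 250 bases before a start listed by RefSeq in GRCh38.p14, 5′ to 3′ on the strand of the gene. The arrays were annotated on another build, so no array coordinate is given. Capitals mark matches, on either strand, to the TATA box TATAAA, its variant TATTTAA, the GC box GGGCGG and the FOXO site TGTTTAC, which were chosen after the sequences were seen.
IGFBP2, chr2:216633170-216633419, plus strand: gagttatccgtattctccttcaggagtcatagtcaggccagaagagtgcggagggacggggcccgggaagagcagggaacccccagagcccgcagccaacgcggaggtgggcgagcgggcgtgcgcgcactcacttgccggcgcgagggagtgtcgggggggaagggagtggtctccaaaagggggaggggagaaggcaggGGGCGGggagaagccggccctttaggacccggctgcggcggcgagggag
IGFBP4, chr17:40443200-40443449, plus strand: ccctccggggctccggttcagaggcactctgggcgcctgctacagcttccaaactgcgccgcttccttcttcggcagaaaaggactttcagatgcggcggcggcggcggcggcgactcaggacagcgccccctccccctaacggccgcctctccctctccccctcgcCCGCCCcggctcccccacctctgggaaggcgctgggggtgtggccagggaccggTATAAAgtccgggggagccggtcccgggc
IGFBP5, chr2:216695550-216695799, minus strand: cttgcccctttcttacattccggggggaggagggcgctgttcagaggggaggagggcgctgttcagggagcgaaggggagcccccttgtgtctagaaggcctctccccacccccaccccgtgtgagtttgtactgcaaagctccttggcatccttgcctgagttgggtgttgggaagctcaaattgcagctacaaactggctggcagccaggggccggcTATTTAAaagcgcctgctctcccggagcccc

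IGFBP4 held TATAAA starting 29 bases before the start, and IGFBP5 held TATTTAA starting 31 bases before it. Neither pattern was in the IGFBP2 window shown, which held a GC box instead. That window is 1 of 3 listed for IGFBP2. Over all 35116 windows, TATAAA was found in 3763, which included 1 window of the members, TATTTAA in 4.2%, GGGCGG in 42.6% and TGTTTAC in 3.0%. Of the members, TGTTTAC was found for IGFBP6. GC boxes were found for 8 members, all those with a window other than IGFBP5. CpG pairs numbered 8 in the IGFBP5 window, 24 in that of IGFBP4 and 22 in that of IGFBP2, against a median of 11 over all windows. The receptor and substrate windows held 28 (INSR), 48 (IGF1R), 33 (IGF2R), 39 (IRS1) and 42 (IRS2). A match describes the letters of the window and is not evidence of binding. IGFBP7 was not matched to a window.

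Levels are given as normalized signal, the log2 of the processed signal minus the 75th percentile of its array, so that 0 is a bright feature and 1 unit is 2-fold. Levels of different genes are not compared, because each comes from its own probe. Between 56.2% and 79.2% of features were well above background per array (median 67.5%). Of the members, all but IGFBP5 and IGFBP7 were well above background on all 54 arrays. Duplicate arrays of a culture differed in the median by 0.053 (IGF1R) to 0.20 (IGFBP5). RNA came from whole cultures, so a change in the share of a cell type and a change in RNA per cell cannot be told apart. The pluripotent state was checked with 7 markers, which were above background on every array, and their summed linear signal (in units of the 75th percentile) was 340.0 to 809.7 in the 23 undifferentiated cultures with FGF, 267.9 to 373.1 without FGF and 31.0 in the differentiated culture.

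**Figure D1:**
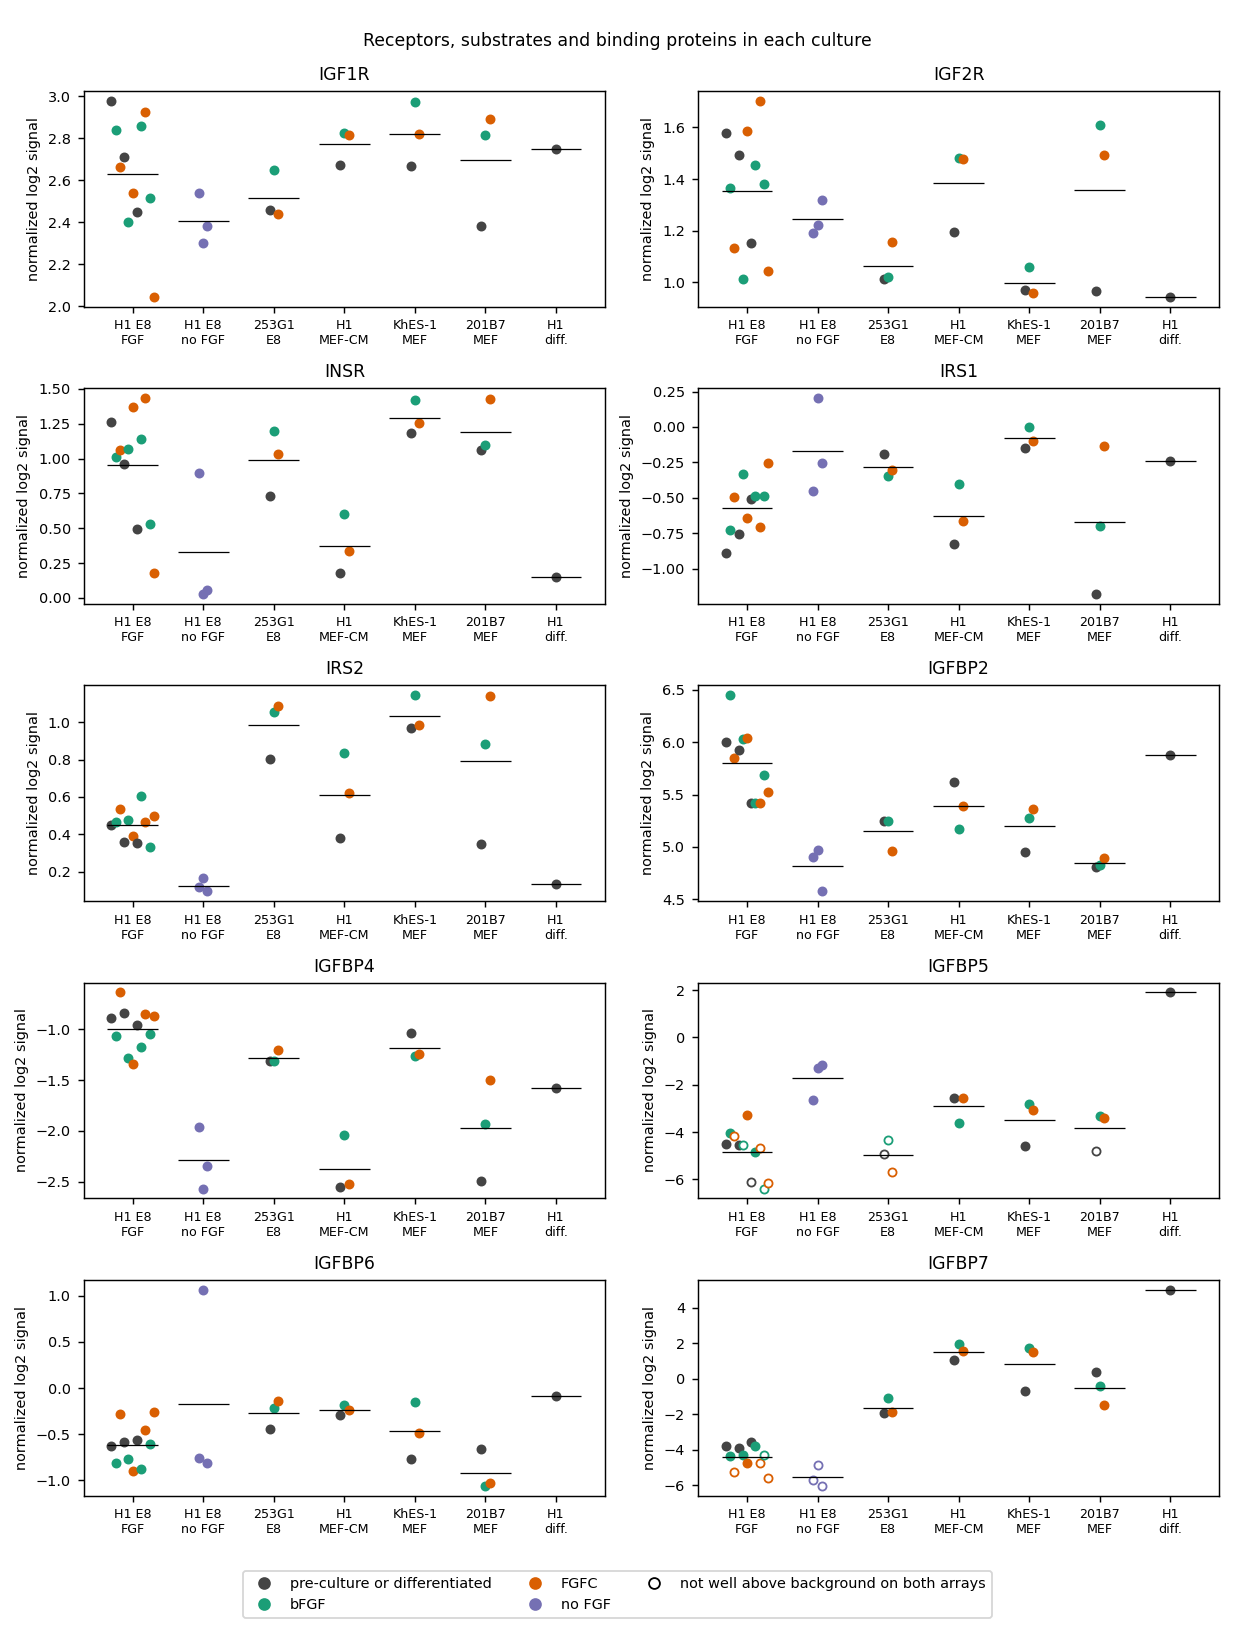
Normalized log2 signal of each member in each of the 27 cultures, with 1 panel per gene and its own axis. Points are cultures (means of 2 arrays), horizontal lines are means of the columns, and open points were not well above background on both arrays. IGFBP5 and IGFBP7 had their highest values, 1.90 and 5.04, in the differentiated culture, and IGFBP2 and IGFBP4 in H1 without FGF lay below all H1 cultures in E8 with FGF.

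Among the receptors, IGF1R, the tyrosine kinase receptor for both IGFs, ranged from 2.04 to 2.98 in the 11 H1 cultures in E8 with FGF (mean 2.63 ± 0.28, SD, n = 11), and the means of the other culture types lay within this range, from 2.41 without FGF to 2.82 in KhES-1. No neighbouring culture types in the order of IGF1R were separated. IGF2R, which clears IGF2, ranged from 1.01 to 1.70 in H1 in E8 with FGF (median 1.38). It was 0.96 to 1.06 in KhES-1 and 0.94 in the differentiated culture, around the low end of the H1 range. INSR, the insulin receptor, ranged from 0.18 to 1.44 in H1 in E8 with FGF, with its lowest values in the pre-culture of experiment 3 (0.50) and in the 30-day cultures (0.53 with bFGF and 0.18 with FGFC). It was 1.19 to 1.42 in KhES-1 and 1.06 to 1.42 in 201B7, inside the H1 range.

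Of the substrates, IRS2 had the narrowest range in H1 in E8 with FGF, from 0.33 to 0.60 (SD 0.08, n = 11). IRS2 was above this range in all 3 cultures of KhES-1 (0.97 to 1.15) and of 253G1 (0.81 to 1.09), and it was below it in all 3 H1 cultures without FGF and in the differentiated culture (0.13). IRS1 ranged from −0.89 to −0.25 in H1 in E8 with FGF and from −0.15 to 0.00 in KhES-1. The 3 cultures of 201B7 spread from −1.18 to −0.13 in IRS1, and its second feature from −3.45 to −2.07, on both sides of the H1 median. The low ends were the 201B7 pre-culture, whose arrays had the lowest 75th percentile signals of all arrays, 181.5 and 234.1. It was also the lowest 201B7 culture for IGF1R, IGF2R, INSR, IRS2, IGFBP4 and IGFBP5.

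Of the binding proteins, IGFBP2, a binding protein abundant in fetal tissues, ranged from 5.42 to 6.45 in H1 in E8 with FGF (mean 5.80 ± 0.33, SD, n = 11). It was lower in 201B7, from 4.81 to 4.89, in 253G1, from 4.96 to 5.25, and in KhES-1, from 4.95 to 5.36. IGFBP6, which prefers IGF2 over IGF1, ranged from −0.90 to −0.26 in H1 in E8 with FGF and was 1.07 in 1 culture without FGF. IGFBP4, which is cleaved by the protease PAPPA, ranged from −1.34 to −0.63 in H1 in E8 with FGF. IGFBP5, a matrix-binding member, ranged from −6.38 to −3.26 there and was well above background on 13 of 22 arrays. IGFBP7, a secreted matrix protein with low affinity for IGFs, ranged from −5.61 to −3.59 and was well above background on 16 of 22 arrays.

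The effect of FGF itself was read from H1 in E8 after 4 days with no FGF additive against bFGF, with 3 cultures in each arm. IGFBP5 rose, and IGFBP2, IGFBP4 and IGFBP7 fell, while the 3 receptors and the 2 substrates did not pass the test (limma, Benjamini-Hochberg over all 42405 features, threshold 0.05). The test called 4 of 10 members, 1 higher and 3 lower, where 12.7% of all features were called (5.54% higher and 7.19% lower). At an unadjusted p under 0.05, 6 members passed. The median log2 difference was −0.34 over the members and 0.01 over all features.

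IGFBP5 was at −2.64, −1.30 and −1.18 in experiments 1, 2 and 3 without FGF, and at −4.05, −4.54 and −4.86 with bFGF. The arms did not overlap, and the lowest culture without FGF was that of experiment 1. The log2 difference was 2.77 (95% interval 1.61 to 3.94, adjusted p = 0.00538, limma), or 6.84-fold. IGFBP5 was well above background on 5 of 6 arrays with bFGF, so this fold rests on a level near the detection limit.

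IGFBP4 was at −1.96, −2.57 and −2.35 without FGF, in the order of the experiments, and at −1.06, −1.28 and −1.17 with bFGF. Every culture without FGF lay below every culture with bFGF. The log2 difference was −1.12 (95% interval −1.59 to −0.65, adjusted p = 0.00537, limma).

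IGFBP2 was at 4.91, 4.97 and 4.58 without FGF and at 6.45, 6.04 and 5.42 with bFGF. It was lower without FGF in 3 of 3 experiments, and the arms did not overlap. The log2 difference was −1.15 (95% interval −1.77 to −0.53, adjusted p = 0.0198, limma). The fall of IGFBP2 stood beside the rise of IGFBP5, the gene next to it.

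IGFBP7 was at −5.71, −4.86 and −6.04 without FGF and at −4.37, −4.29 and −3.77 with bFGF. It was well above background on all 6 arrays with bFGF and on none of the 6 without FGF, so that the difference is a bound. The dim arrays were held at the lowest signal well above background, or at their own signal if higher. IGFBP7 was then at least 1.99-fold lower without FGF. This bound was not tested. The limma fit was of the measured values (log2 difference −1.39, adjusted p = 0.00955). With normexp background correction the log2 difference was −0.28 (adjusted p = 0.195).

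INSR was at 0.90, 0.03 and 0.06 without FGF and at 1.01, 1.07 and 1.14 with bFGF. It was lower in all 3 experiments, but by 0.11 in experiment 1 and by 1.04 and 1.09 in the other two. The log2 difference of −0.75 did not pass (95% interval −1.32 to −0.17, adjusted p = 0.0939, limma). IRS2 was at 0.12, 0.16 and 0.09 without FGF and at 0.46, 0.48 and 0.60 with bFGF. The IRS2 arms did not overlap, but its log2 difference of −0.39 did not pass (adjusted p = 0.0870).

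IRS1 was higher without FGF in 3 of 3 experiments, by 0.24 to 0.54, and did not pass (log2 difference 0.35, adjusted p = 0.320). Its second feature was at −1.75 to −1.61 without FGF and at −2.36 to −2.17 with bFGF, without overlap, and the mean over both features did not pass either (log2 difference 0.47, adjusted p = 0.123). IGFBP6 was at −0.76, 1.07 and −0.81 without FGF and at −0.82, −0.77 and −0.88 with bFGF, so that its difference of 0.65 (adjusted p = 0.357) came from experiment 2. IGF1R and IGF2R differed by −0.29 and −0.03 (adjusted p = 0.390 and 0.937).

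Against FGFC in place of bFGF, FGF removal called 3 of 10 members, 1 higher and 2 lower, where 10.8% of all features were called (4.72% higher and 6.07% lower). This comparison shares its cultures without FGF with the previous one. IGFBP5 was at −4.16, −3.26 and −4.66 with FGFC, below each culture without FGF, with a log2 difference of 2.32 (95% interval 1.16 to 3.48, adjusted p = 0.0162, limma). With FGFC it was well above background on 4 of 6 arrays. IGFBP4 was at −0.63, −1.34 and −0.85 with FGFC, with a log2 difference of −1.35 (95% interval −1.82 to −0.88, adjusted p = 0.00195). INSR was at 1.06, 1.37 and 1.44 with FGFC, with a log2 difference of −0.96 (95% interval −1.54 to −0.38, adjusted p = 0.0388).

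IGFBP2 was at 5.85, 6.04 and 5.42 with FGFC, above each culture without FGF. Its log2 difference of −0.95 missed the threshold (95% interval −1.57 to −0.34, adjusted p = 0.0529) and passed it with the experiment as a block in a paired fit (adjusted p = 0.00725), in which 4 of 10 members and 4928 of 42405 features were called. IGFBP7 was at −5.27, −4.77 and −4.78 with FGFC, well above background on 3 of 6 arrays, and did not pass (measured log2 difference −0.60, adjusted p = 0.265).

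These calls rest on 3 experiments, and the fit without 1 of them often lost them. Against bFGF, the adjusted p of IGFBP5 was 0.0801 without experiment 2 and 0.0632 without experiment 3, that of IGFBP4 was 0.0525 and 0.175 without the same experiments, that of IGFBP2 was 0.157 and 0.15 without experiments 1 and 2, and that of IGFBP7 was 0.0849 and 0.249 without experiments 1 and 3. Against FGFC, INSR had 0.405 and 0.431 and IGFBP5 had 0.101 and 0.167 without experiments 2 and 3, and IGFBP4 had 0.132 without experiment 3. INSR against FGFC also missed the threshold with the second array of each culture alone (adjusted p = 0.0561) and with these 2 arms alone in the fit (adjusted p = 0.113). INSR against bFGF passed without experiment 1 (log2 difference −1.06, adjusted p = 0.0281). The bFGF and no-FGF arms shared a slide in experiments 1 and 3, in which IGFBP5 differed by 1.40 and 3.68 and IGFBP4 by −0.90 and −1.18. With the slide as a term and arrays fitted singly with the culture as a block, 7 of 10 members were called in either comparison. In that fit 10936 of 42405 features were called against bFGF and 11154 against FGFC, in place of 5400 and 4575. The members not called were then IGF2R and IGFBP6 in both, with IRS1 against bFGF and IGFBP7 against FGFC. Single arrays in place of culture means entered that fit, so its counts are not a like measure beside those of the main fit. The neural marker list moved with FGF removal, its summed linear signal being 43.9 to 57.7 without FGF and 17.8 to 20.7 with bFGF, with 4 and 3 of 5 markers above background on every array and SOX1 on none of either arm. PAX6, a neural transcription factor, was at −2.09 to 0.84 without FGF and not well above background with bFGF. The mesenchymal list summed to 19.0 to 25.7 without FGF and 48.1 to 55.7 with bFGF, with 4 of 10 markers above background on every array of either arm and LUM and DCN on none. The muscle list summed to 6.94 to 16.2 without FGF and 6.19 to 6.79 with bFGF, with 5 of 6 markers above background on every array of either arm and MYH6 on none without FGF. The part of such cells in the changes of the members was not tested.

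**Figure D2:**
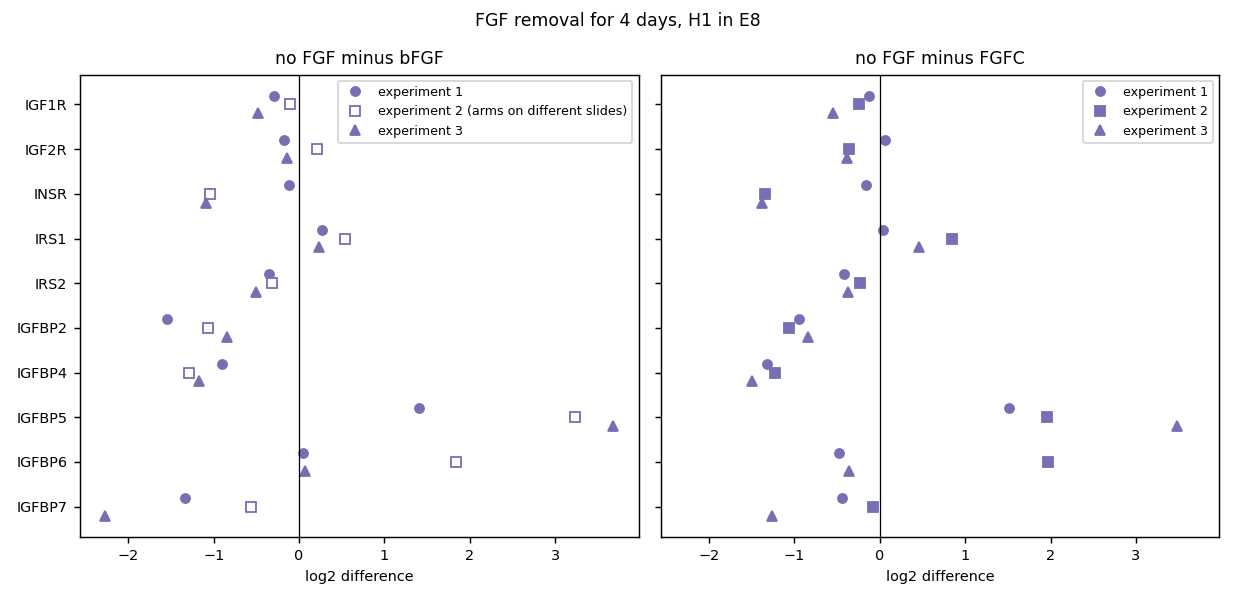
Log2 differences of the members in each of the 3 experiments for H1 in E8 without FGF, against bFGF on the left and against FGFC on the right. Symbols are experiments, open where the 2 arms were on different slides. IGFBP5 lies right of 0 in every experiment, from 1.40 to 3.68 against bFGF, and IGFBP2 and IGFBP4 lie left of 0 in every experiment.

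The rest of the pathway was read from a list of 49 genes (ligands, binding proteins and their proteases, adaptors, phosphoinositide kinases, AKT, the TSC and mTOR branch, FOXO factors and IGF2 mRNA binding proteins). Against bFGF, 10 of 49 passed, 5 higher and 5 lower, where 12.7% of all features were called. Against FGFC, 8 of 49 passed, 3 higher and 5 lower, where 10.8% were called. IGFBP3, the main IGF carrier of serum, rose from −2.66, −2.40 and −2.71 with bFGF to 0.01, −0.63 and −0.35 without FGF (log2 difference 2.27, adjusted p = 0.000162, limma). PIK3R3, a regulatory subunit of phosphoinositide kinase, rose by 1.90 (adjusted p = 0.00171). IRS4, a further insulin receptor substrate, rose by 2.46 (adjusted p = 0.00488), from a level well above background on 1 of 6 arrays with bFGF.

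STC2, an inhibitor of the protease PAPPA, fell by 1.62 against bFGF (adjusted p = 0.000703), with −2.66 to −1.97 without FGF and −0.73 to −0.68 with bFGF. PIK3CB, a catalytic subunit of phosphoinositide kinase, fell by 0.94 (adjusted p = 0.00570), and RICTOR, of the mTOR complex that phosphorylates AKT, fell by 0.65 (adjusted p = 0.0199). Against FGFC, IGFBP3 rose by 2.09 (adjusted p = 0.000322), PIK3R3 by 1.64 and IRS4 by 2.61, from a level well above background on 2 of 6 arrays with FGFC, and STC2 fell by 1.68, PIK3CB by 0.93 and the transcription factor FOXO1 by 1.26 (adjusted p = 0.0179). Of the ligands, IGF2 at its brighter feature differed by 0.46 against bFGF (adjusted p = 0.321). IGF1 was well above background on none of the 6 arrays without FGF and INS on 1 of 6.

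FGFC was compared with bFGF in 8 pairs of cultures, 3 after 4 days and 5 after long-term culture. Neither comparison called a member, where 0% of all features were called (limma), and the intervals limit how far the factors could differ. After 4 days 1 member, IGFBP7, passed at an unadjusted p under 0.05, as did 1262 of all features. For IGF1R the log2 difference was 0.01 (95% interval −0.43 to 0.45), for INSR 0.21 (−0.36 to 0.79), for IRS2 −0.05 (−0.35 to 0.24), for IGFBP2 −0.20 (−0.81 to 0.42), for IGFBP4 0.23 (−0.24 to 0.70) and for IGFBP5 0.45 (−0.71 to 1.62). The interval of IGFBP5 was the widest, and those of IGFBP5, IGFBP6 (−0.62 to 1.18) and IGFBP7 did not exclude a 2-fold difference. IGF2R, IRS1 and IGFBP6 had differences of 0.20, −0.10 and 0.28.

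IGFBP7 was lower with FGFC than with bFGF in 8 of 8 pairs. After 4 days the differences were −0.90, −0.48 and −1.01 in experiments 1 to 3 (log2 difference −0.80, 95% interval −1.44 to −0.15, unadjusted p = 0.0202, adjusted p = 1.00, limma). The unadjusted p was 0.061 with quantile normalization, 0.144 with normexp, 0.0684 with the second arrays alone, and 0.105 and 0.0814 without experiments 1 and 3. With FGFC it was well above background on 3 of 6 arrays, so these levels are close to the detection limit.

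In long-term culture the differences of IGFBP7 were −1.05 for 201B7 and −0.79 for 253G1, −0.23 for KhES-1, and for H1 −1.28 in E8 and −0.43 in MEF-conditioned medium. The value for H1 in E8 rests on a level at the detection limit, well above background on 1 of 2 arrays with bFGF and on 0 of 2 with FGFC. The limma fit with the system as a block gave −0.76 (95% interval −1.17 to −0.34, unadjusted p = 0.00394, adjusted p = 0.701), so the difference did not pass the correction over all features. The arms shared a slide in 201B7 and 253G1 and were on different slides in the other systems. The part of the slide in this difference was not tested, nor was that of feeder RNA in 201B7 and KhES-1. IGFBP7 was the only member at an unadjusted p under 0.05 in the long-term fit, in which 2537 of all features were under it. The fitted means of the other members over the 5 systems were −0.15 (IGF1R) to 0.10 (IRS1). Single pairs differed more. IGFBP5, at −0.09 (95% interval −0.85 to 0.67), ranged from −1.34 in 253G1 to 1.05 in H1 in MEF-conditioned medium. In 253G1 it was not well above background on any array. Of the 49 other pathway genes, 0 passed in either comparison, with 3 after 4 days and 2 in long-term culture at an unadjusted p under 0.05. At its brighter feature, IGF2 differed by −0.19 after 4 days and by −0.13 in long-term culture, and INS by 0.03 and −0.46. IGF1 was near background in all these cultures. In 201B7 the brighter IGF2 feature was at −1.06 with bFGF and −0.36 with FGFC. The second IGF2 feature was there at −3.10 and −4.27.

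**Figure D3:**
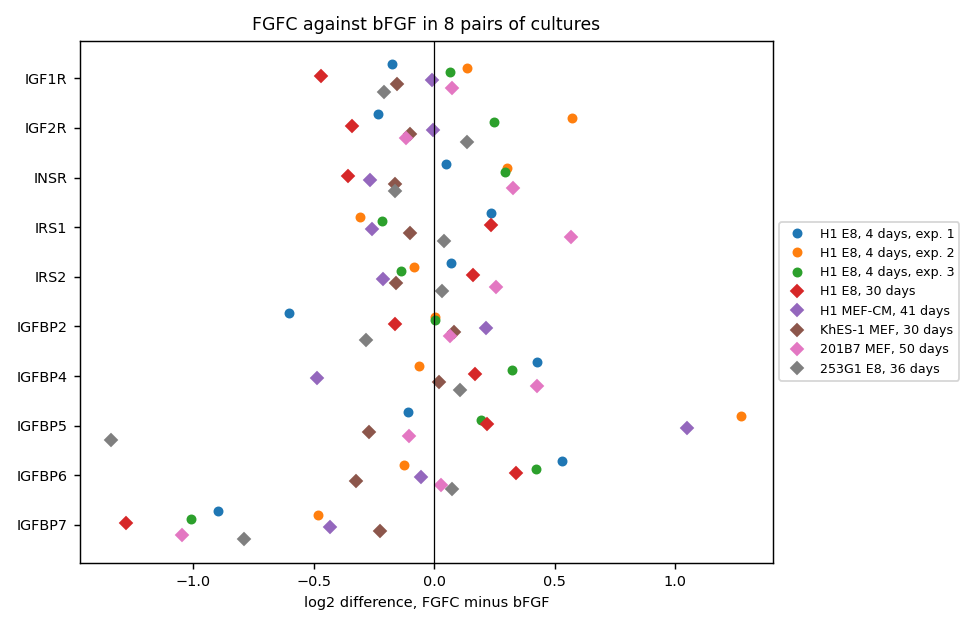
Log2 differences between FGFC and bFGF for each member in 8 pairs of cultures, circles for the 3 experiments of 4 days and diamonds for the 5 long-term systems. IGFBP7 lies left of 0 in all 8 pairs, from −1.28 to −0.23, and the other members lie on both sides of 0.

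Culture in MEF-conditioned medium was compared with E8 in the H1 line, 3 cultures against the 11 in E8 with FGF. IGFBP7 and IGFBP5 rose and IGFBP4 fell in MEF-conditioned medium, while IGF1R, IGF2R, INSR, IRS1, IRS2, IGFBP2 and IGFBP6 did not pass (limma). The test called 3 of 10 members, 2 higher and 1 lower, where 35.5% of all features were called (9.47% higher and 26.1% lower), so the count of members was below that share. The median of all features was −0.15 in this comparison. It was −0.03 after quantile normalization, with 4804 features higher and 4881 lower in place of 4016 and 11055. The same number of members, 3, was called under either scaling.

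IGFBP7 was at 1.05 in the pre-culture, 1.98 with bFGF and 1.55 with FGFC in MEF-conditioned medium, far above the range of −5.61 to −3.59 in E8. The log2 difference was 5.93 (95% interval 5.14 to 6.72, adjusted p = 4.92e-08, limma), or 6.08 relative to the median of all features. IGFBP7 was thus 61.0-fold higher in MEF-conditioned medium, against a level in E8 that was well above background on 16 of 22 arrays.

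IGFBP5 was at −2.56, −3.60 and −2.55 in MEF-conditioned medium, in the same order. The culture with bFGF lay within the E8 range of −6.38 to −3.26, and the other two lay above it. The log2 difference was 1.93 (95% interval 0.76 to 3.11, adjusted p = 0.0132), or 2.08 relative to the median. Without the pre-culture the adjusted p was 0.0663, and without the FGFC culture it was 0.0744.

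IGFBP4 was at −2.56, −2.04 and −2.53 in MEF-conditioned medium, below all 11 cultures in E8. The log2 difference was −1.38 (95% interval −1.71 to −1.04, adjusted p = 1.49e-05), or −1.23 relative to the median. Its level there overlapped that of H1 in E8 without FGF, −2.57 to −1.96. INSR, at 0.18 to 0.61, was lower by 0.58 and did not pass (95% interval −1.08 to −0.09, adjusted p = 0.0637), and IGFBP6 was higher by 0.37 (adjusted p = 0.0560). IGF1R, IGF2R, IRS1 and IRS2 differed by −0.06 to 0.16, and IGFBP2 by −0.40 (95% interval −0.84 to 0.03, adjusted p = 0.143).

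Medium and slide cannot be told apart, since no slide held both media, and the 3 cultures in MEF-conditioned medium differ in FGF, time and passage. These 3 cultures are a pre-culture and the long-term cultures begun from it, not separate replicates of the medium. The p-values of this comparison thus measure only the spread between these cultures. With the slide as a random block and arrays fitted singly, IGFBP4, IGFBP5, IGFBP7 and INSR were called, where 13130 of 42405 features were. That fit had no term for the culture, so duplicate arrays were counted singly, and it cannot separate the slide from the medium. Muscle markers moved with this medium. The summed linear signal of 6 muscle markers was 42.4 to 71.8 in MEF-conditioned medium and 4.19 to 8.63 in E8, with ACTA2 (smooth muscle actin) at 3.14 to 3.57 against −3.74 to −1.71. The mesenchymal list gave 63.9 to 68.7 against 43.1 to 65.9, with COL3A1, DCN, LUM and PRRX1 not well above background in MEF-conditioned medium. The hepatic and yolk sac list gave 8.53 to 17.8 against 0.68 to 2.00, with TTR, FGB and TF not well above background, and the neural list gave 58.1 to 81.8 against 17.0 to 30.1. Their part in the result was not tested.

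Of the pathway list, 18 of 49 genes passed in MEF-conditioned medium, 10 higher and 8 lower, where 35.5% of all features were called. The count of pathway genes was thus close to that share. IGFBP3 rose by 1.45 (adjusted p = 2.18e-05), the adaptor GAB1 by 0.77 and AKT1, a kinase of the pathway, by 0.44. STC2 fell by 1.33, PIK3R1, a regulatory subunit of phosphoinositide kinase, by 1.26, and IGF2BP3, which binds IGF2 mRNA, by 0.62. The ligand IGF2 rose by 1.45 at its brighter feature (adjusted p = 0.00319, limma). That feature was at −0.56 to 0.06 in MEF-conditioned medium and −2.82 to −1.16 in E8. The second IGF2 feature, near background in both media, was at −6.39 to −6.08 in MEF-conditioned medium. That lay inside its E8 range of −7.29 to −4.76. IGF1, near background, differed by −0.48 and INS by −0.34, and neither passed (adjusted p = 0.166 and 0.144, limma). INS was well above background on every array in MEF-conditioned medium but not on every array in E8.

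The comparison of MEF-based media with E8 was extended to 5 systems, 3 in MEF-based media (H1 in MEF-conditioned medium, KhES-1 and 201B7) and 2 in E8 (H1 and 253G1), with the mean of each system as 1 value. No member passed, where 0% of all features were called, and 2 members passed at an unadjusted p under 0.05, as did 7780 of all features. The line and the medium differ together in all systems but those of H1. IGFBP7 was at 0.36, −0.43 and −1.48 in 201B7 (pre-culture, bFGF and FGFC), at −0.69, 1.74 and 1.51 in KhES-1 and at −1.96, −1.11 and −1.90 in 253G1. Thus the 253G1 line, in E8, lay above all H1 cultures in E8 and overlapped 201B7 on MEF. The log2 difference of IGFBP7 was 3.65 (95% interval 1.73 to 5.58, adjusted p = 0.242, limma). Without 253G1 it was 5.03 (adjusted p = 0.0400), but the E8 arm is then H1 alone, 1 value that is assumed to vary like the 3 MEF-based systems.

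IGFBP5 had a log2 difference of 1.5 over the systems (95% interval 0.59 to 2.40, adjusted p = 0.242). In 253G1 it was −5.69 to −4.35 and not well above background on any of 6 arrays, and in KhES-1 and 201B7 it was −4.58 to −2.81 and −4.82 to −3.31. IGFBP4 differed by −0.71 (adjusted p = 0.501). It was −2.50 to −1.50 in 201B7 but −1.26 to −1.03 in KhES-1, and 1 of 3 cultures of 201B7 lay within the range of H1 in MEF-conditioned medium. That culture was the 201B7 pre-culture, whose arrays had 75th percentile signals of 181.5 and 234.1, the lowest of all arrays. INSR and IRS1 differed by −0.02 and −0.04, with intervals of −0.94 to 0.90 and −0.88 to 0.81. Of the 49 pathway genes, 0 passed and 3 were under 0.05 unadjusted. IGF2, at its brighter feature, and INS differed by 0.99 and 0.18. The second IGF2 feature was at −4.27 to −1.19 in 201B7 and at −7.40 to −6.52 in KhES-1. IGF1 was well above background on at most 2 of 6 arrays in any of the systems in MEF-based media and on none in 253G1. The mesenchymal list summed to 75.6 to 258.0 in 201B7, where COL3A1, LUM and PRRX1 were above background on no array, and to 39.1 to 43.7 in KhES-1, where COL3A1 and LUM were on none, against 43.1 to 65.9 in H1 and 60.6 to 66.4 in 253G1 in E8. Within it DCN, a fibroblast marker singled out after its values were seen, was at 4.85 to 7.08 in 201B7 and at −4.41 to −2.09 in KhES-1. The part of feeder RNA in the levels of 201B7 and KhES-1 was not tested.

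**Figure D4:**
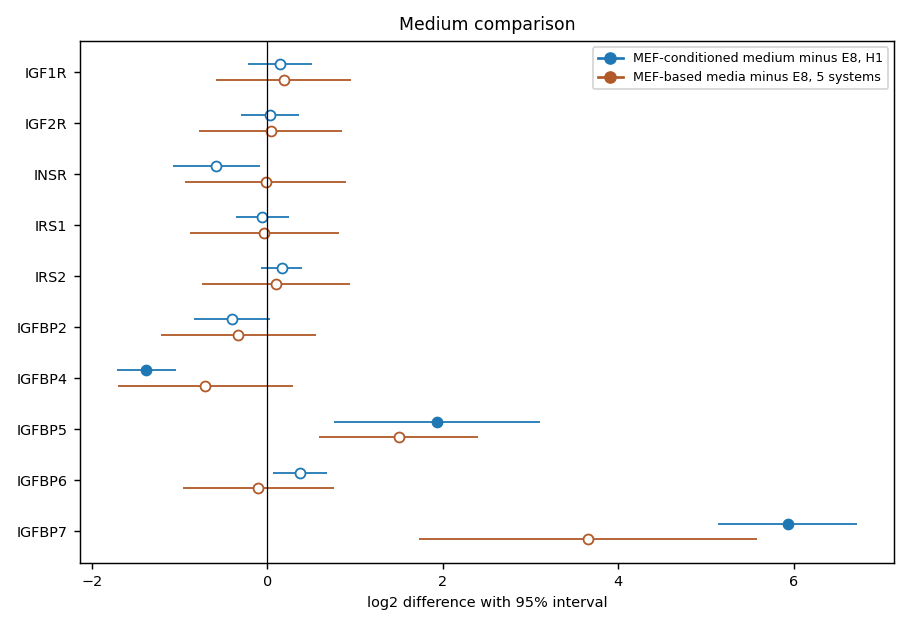
Log2 differences of the members between MEF-based media and E8 with 95% intervals of limma, for H1 alone (3 against 11 cultures) and over 5 systems (3 against 2). Filled points passed the test. IGFBP7, at 5.93 and 3.65, lies farthest from 0, and IGFBP4, IGFBP5 and IGFBP7 are filled for H1 alone.

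The differentiated H1 culture was set beside the 3 H1 pre-cultures in E8, without a test since it is 1 culture. IGFBP7 and IGFBP5 were the members past 2-fold, 2 of 10, where 29.7% of all features were past it (14.3% higher and 15.4% lower). IGFBP7 was at 5.04 against −3.80, −3.89 and −3.59, a log2 difference of 8.80 or 445-fold, and 8.92 relative to the median of all features of −0.12. IGFBP5 was at 1.90 against −4.50, −4.54 and −6.12, a log2 difference of 6.96. IGFBP5 was well above background on 4 of the 6 pre-culture arrays.

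The receptors and substrates stayed within 2-fold of the pre-cultures at their brightest features, while the second feature of IRS1 was at −1.26 and differed by 1.05, just past 2-fold. INSR was at 0.15 and differed by −0.75, IGFBP4 by −0.68, IGF2R by −0.46 and IRS2 by −0.25, while IGFBP6 differed by 0.51, IRS1 by 0.47, IGFBP2 by 0.10 and IGF1R by 0.04. IGFBP2, which was lower without FGF, was thus at 5.88 in the differentiated culture, inside the H1 range with FGF. Of the pathway list, 18 of 49 genes were past 2-fold, 11 higher and 7 lower, where 29.7% of all features were. IGF2 was at 8.85 and differed by 10.38, IGFBP3 was at 3.59 and differed by 6.26, and IGF1 was at −3.67, at least 4.13-fold higher, at its brighter feature, which was not well above background on any pre-culture array. Every marker list changed in this culture. All 10 mesenchymal and all 6 hepatic and yolk sac markers were above background on both arrays, and the hepatic and yolk sac list summed to 54.9 against 0.77 to 1.83 in the pre-cultures. The part of these cell types in the levels was not tested.

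The genes whose levels were most like those of each member over the 27 cultures were searched among 18841 features outside the member and pathway lists. These are descriptions over cultures that share lines, media and slides. The closest were F3 and ANXA2 for IGFBP7 (Pearson r = 0.945 and 0.942), NT5M and LHPP for IGFBP4 (0.929 and 0.919), FBXL16 and NPTX1 for INSR (0.921 and 0.860) and ZFHX3 and TNC for IGFBP5 (0.919 and 0.890). For IRS2 the closest was OAT (0.914), and the pairs were for IRS1 RACGAP1 and MTBP (0.872 and 0.852), for IGF1R HIVEP2 and FNIP1 (0.873 and 0.788), for IGFBP2 SLC46A1 and CEP57L1 (0.853 and 0.850) and for IGF2R CEP83 and ZNF397 (0.842 and 0.842). IGFBP6 had no close match, the highest being TMCC2 and TIMP1 (0.664 and 0.654). Without the differentiated culture, r was 0.861 for ZFHX3 and 0.820 for TNC with IGFBP5 and 0.933 for F3 with IGFBP7. Among all pairs of members, INSR with IRS2 had the r largest in size over 27 cultures, 0.56, and IGFBP4 with IGFBP5 had −0.54. Over the 26 cultures other than the differentiated one, IGFBP4 with IGFBP5 had the largest in size, −0.68, and IRS2 with IGFBP7 had 0.64.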

How the data were processed

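RNA of 27 cultures was hybridised to 54 one-colour Agilent arrays. The deposited signal intensity is the processed signal of Feature Extraction 10.7.3.1 (from the file headers), background-subtracted by the authors' software linear in scale, with no adjustment from array to array. The deposited median signal and background intensities were used for normexp alone. The deposited flags for outliers, saturation and signal above background are yes or no marks of the same software. The deposited series table holds the same values. Outlier spots (266 to 623 per array) and 4259 control spots were removed, signals below 1 were raised to 1, and spots of 1 probe were averaged on the log2 scale. The 75th percentile of each array (181.5 to 913.5 in signal) was subtracted and duplicate arrays were averaged to 1 culture. A probe counted as well above background where a share of 0.5 or more of the spots carried that mark. The number of arrays limits the precision, and probes near background are less precise.

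Features were named by RefSeq accession through the GRCh38.p14 gene table (25715 of 42405). For a gene with several features the brightest was used. Tests were limma 3.58.1 (lmFit and eBayes, R 4.3.3) over all features with Benjamini-Hochberg adjustment, threshold 0.05, two-sided. The 4-day arms were fitted over 12 cultures, H1 media over 14 cultures, and long-term pairs with the system as a block. Scripts were checked on simulated data. Other steps used Python 3.11.15, numpy 2.4.6 and pandas 2.3.3. Nothing in the labels says how separate the cultures of an experiment were, so p-values measure the spread between these cultures. The passage given in the labels of 5 experiment 3 arrays is not that of their titles, whose experiment number was taken.

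Cultures without FGF deviated together with the same experiment's bFGF or FGFC culture (r = 0.191 to 0.320 over 6 pairs), and bFGF with FGFC by r = 0.077 to 0.179. In pairs with the pre-culture of an experiment, r ranged from −0.162 to 0.516. The main fits of the 4-day arms had no block for the experiment, and the paired fit was run as an alternative.

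The members and gene lists were chosen with earlier results of these data known. All members are named. Of the pathway list, up to 3 genes with the smallest adjusted p in each direction among those called are named in each comparison, with IGF1, IGF2 and INS. The 2 most similar genes per member are named, among features above background in at least 14 cultures, except 1 gene that is not reported here. Alternatives were normexp (offset 50), quantile normalization, either array alone, the mean over features, a filter on dim features, leaving out each replicate, blocks for experiment and slide, and fits of fewer cultures.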

Additional observations from a re-analysis of the deposited data

Results flagged for a closer look

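The difference of INSR between FGFC and bFGF in long-term culture was 0.33 in 201B7, while in the other 4 systems it lay between −0.36 and −0.16. The gap from 201B7 to the nearest system was large against the range of all 5 systems. Chance alone sets 1 value apart to this degree in about 1 of 20 such groups, and 10 members were looked at.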

How the results depend on the processing

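No difference of a called member changed its direction under any alternative run. Over all members, comparisons and alternatives, 765 values stayed on the same side of the threshold, 22 passed it newly and 18 no longer passed. The number of members called without FGF against bFGF, 4, was 1 to 3 when an experiment was left out, 4 with the experiment as a replicate block, 5 with normexp or quantile normalization and 7 with the slide as a term. Against FGFC, 3 members became 0 to 3 with an experiment left out, and 2 with the second array of each culture alone or the 2 arms alone. They became 4 with the experiment as a replicate block and 7 with the slide as a term. The fits with the slide as a term took single arrays in place of culture means, and they called more of all features too. For FGFC against bFGF it was 0 under every alternative, both after 4 days and in long-term culture. For MEF-conditioned medium against E8, 3 members became 5 with normexp, where 19209 of 42405 features were called, and 2 to 3 with a culture left out. Over 5 systems, 0 became 1 (IGFBP7) with normexp, 1 with 23 cultures and the system as a random block, and 0 to 1 with a system left out. For the differentiated culture it stayed at 2. The causes were not tested. IGFBP5 and IGFBP7 lie near background in E8, where the signal limits what can be read.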
